A study of Sus scrofa with 18 samples.

Results

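All 9 tumour libraries of a double knock-in (DIK) pig were set against all 9 libraries of normal tissue from wild-type (WT) pigs, in 1 model that takes out the mean differences between sampling sites and leaves a single DIK-WT difference per gene. All 18 of the 18 libraries of the series entered, and 12895 of the 27339 genes in the count table passed the filter on low counts. The DIK line carries elements of the Tet-on system, which turns a gene on when doxycycline is given, and of phiC31 integrase, an enzyme that recombines DNA at its attachment sites. At 7 months of age, 3 DIK founders and WT animals of like age received doxycycline, and tissue was taken 8 months after induction. The 6 groups were DIK nose, DIK mouth and DIK scrotum, all tumours of 1 founder, and WT nose, WT mouth and WT scrotum, all normal tissue, with 3 libraries in each. The gene that the system switches, the promoter that drives it and the number of WT animals do not appear in the sources used here. Nothing says that libraries of a group came from separate animals, so each p-value rests on a spread between libraries that may be technical alone. The posterior HOX genes, which mark the hind part of the body, summed to 11.7 to 20.3 CPM in DIK and 42.1 to 70.5 CPM in WT in libraries labelled mouth and to 0.623 to 4.18 CPM in DIK and 3.35 to 6.49 CPM in WT in those labelled scrotum. Whether the 2 labels were exchanged cannot be told from the files. An exchange in both genotypes would leave the site-adjusted difference as it is, and below the sites are named as labelled.

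Stratified squamous epithelium, the many-layered lining of skin, mouth and nasal opening, renews itself from dividing basal cells that hold on to a basement membrane through laminin and integrin. Cells that leave this layer stop dividing, tie themselves together with desmosomes and finally build a cornified envelope of cross-linked protein. Ligands of the EGF receptor family drive division and migration of these cells, and cholesterol synthesis supplies their membranes and barrier lipids. Muscle, connective tissue, vessels and fat lie beneath, so a bulk RNA sample gives the sum of all of these. In such samples fewer cells of a type and less RNA per cell cannot be told apart.

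Library totals ran from 2024959 to 4146150 counts in DIK and from 418665 to 5041470 in WT. Values below are in CPM, counts brought to a common scaled library total, and 3 counts equal 0.482 to 5.73 CPM, the highest of these in WT nose replicate 1. A plot of overall distances placed all DIK libraries on one side of its first axis, which held 57.1% of the variation, and all WT libraries on the other. WT scrotum replicate 2 lay nearest to the tumours. It held 9978 CPM of summed desmosome genes, against at most 669 CPM in the other WT libraries. The normal tissue was rich in muscle: 26 skeletal muscle genes summed to 7.88 to 965 CPM in DIK, against 4038 to 406221 CPM in WT. The part of tissue make-up in the differences that follow was not tested.

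The site-adjusted difference was called for 7743 genes, 60.0% of those tested (edgeR's quasi-likelihood test, Benjamini-Hochberg adjusted p under 0.05). Of these, 3680 (28.5% of tested) were higher and 4063 (31.5%) lower in DIK, and the median over all tested genes was -0.05 on the log2 scale. A gene was counted as shared over the sites when it was called and all 3 DIK libraries lay on the same side of all 3 WT libraries at the nose, at the mouth and at the scrotum. There were 2838 such genes (22.0% of tested): 1512 higher (11.7%) and 1326 lower (10.3%). With WT nose replicate 1 (the smallest library) and WT scrotum replicate 2 left out, the shared counts were 2149 higher and 1985 lower, and all but 2 of the 2838 genes were still called. In 1095 genes (8.49%) the lowest of the 9 DIK values exceeded the highest of the 9 WT values, and in 936 genes (7.26%) the highest DIK value was below the lowest WT value.

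The rule for shared genes favours large differences, since DIK and WT must lie apart at every site. The sizes of shared genes are therefore a description and no separate result. The median log2 difference of shared genes was 2.05 for the higher and -2.59 for the lower genes, against 0.97 and -1.26 for genes called without being shared. At least 32-fold differences were found in 145 shared higher and 245 shared lower genes. The difference at a site is given below as the mean log2 CPM of its 3 DIK libraries minus that of its 3 WT libraries, with a prior count of 2 that shrinks the value of sparsely counted genes. The largest and smallest site differences lay within 0.5 of each other in 322 shared higher and 191 shared lower genes. The difference varied over the sites for 2381 tested genes (18.5%; interaction of site and genotype, adjusted p under 0.05), among them 385 shared genes. The SD of the 3 site means had a median of 0.31 log2 units in DIK and 0.47 in WT, and WT had the larger SD for 8605 genes. The SD between the replicates of a group was smaller in DIK too, with a median of 0.328 in DIK and 0.435 in WT, and its part in this gap was not tested. These values are a description, since the tumours are of 1 animal.

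**Figure D1:**
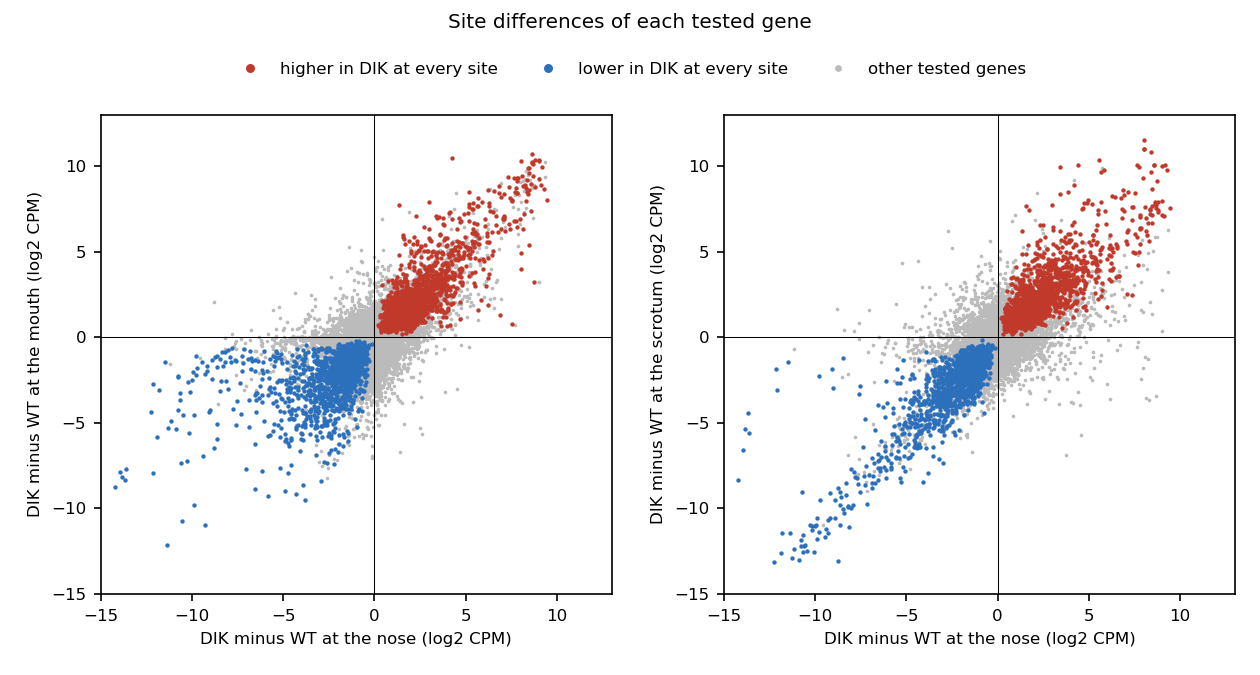
Difference of each tested gene at the nose (horizontal axes) against that at the mouth (left) and at the scrotum (right), as DIK minus WT mean log2 CPM. Red points are the 1512 genes higher and blue points the 1326 genes lower in DIK at every site; grey points are the other tested genes. Many genes with the largest falls at the nose and the scrotum fell less at the mouth, where the blue points spread upwards.

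**Figure D2:**
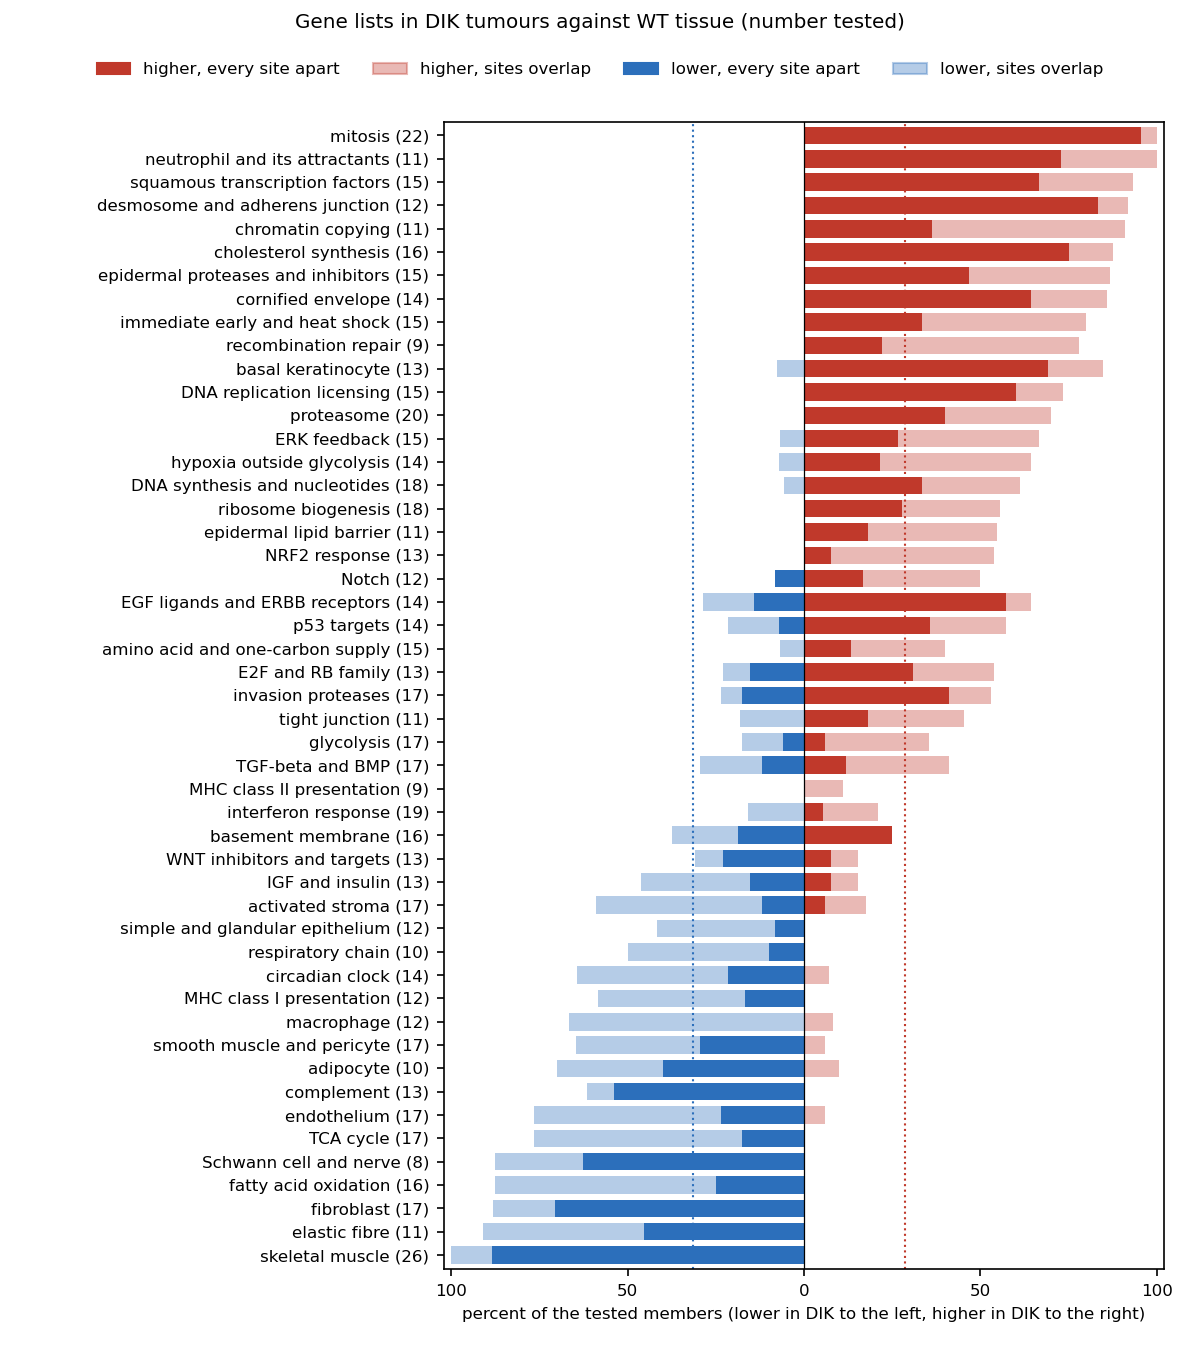
Share of tested members of each gene list with at least 8 tested members that were higher (red, right) or lower (blue, left) in DIK; dark bars are members with no overlap of DIK and WT at any site. Dotted lines mark the shares over all tested genes, 28.5% higher and 31.5% lower.

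The genes with the largest increase at every site were calcium-binding S100 proteins, an arginine-degrading enzyme, a collagenase and genes of the outer layers of squamous epithelium. They were ranked among shared genes with a symbol and at least 10 CPM on average in the higher genotype at every site. S100A8, a subunit of calprotectin made by neutrophils and stressed keratinocytes, had 1102, 4602 and 12567 CPM as the lowest, median and highest of the 9 DIK libraries, against 0.642, 4.96 and 14.6 CPM in WT. The groups lay far apart at every site. Its log2 difference was 9.98 ± 0.78 (SE; adjusted p = 8.37e-09). S100A9, the other subunit, had 1023, 3327 and 8294 CPM in DIK, against 0.4999, 2.93 and 18.7 CPM in WT, with a log2 difference of 9.74 ± 0.81. S100A12, a related ligand of inflammatory receptors, had 2629, 8641 and 20190.2 CPM in DIK, against 2.89, 16.5 and 72.2 CPM in WT (9.17 ± 0.75, adjusted p = 1.56e-08). Over the 15 leading higher genes the smallest of the 3 site differences ran from 7.43 to 9.19. Reads of S100 genes and of keratins may be shared between near-identical copies, so single members of these families are uncertain.

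LGALS4, a galectin that binds sugar chains on epithelial surfaces, had 416, 3267 and 10688 CPM in DIK, against 0.523, 2.50 and 48.9 CPM in WT (9.13 ± 0.63, adjusted p = 1.97e-09). A2ML1, a protease inhibitor of the upper epidermis, had 522, 1993 and 4214 CPM in DIK, against 0.642, 1.49 and 19.1 CPM in WT (9.39 ± 0.58, adjusted p = 5.20e-10). In both, the DIK libraries from the mouth were the lowest of the tumours and still above every WT library. ARG1, which splits arginine into ornithine and urea, had 409, 651 and 12304 CPM in DIK, against 0.784, 1.4996 and 7.94 CPM in WT (9.76 ± 0.61, adjusted p = 5.96e-10), and its highest values were in the scrotum tumours. GJB2, which encodes a gap junction protein of keratinocytes, had 4403, 6967 and 9839 CPM in DIK, against 2.25, 6.27 and 277 CPM in WT (8.35 ± 0.90, adjusted p = 4.41e-07). The highest WT value of GJB2 was far above the WT median but below every DIK value. By absolute level the largest gains were in KRT5 and KRT6A, keratins of basal and of activated squamous cells. KRT5 had 20511, 39919 and 60462 CPM in DIK, against 41.0, 563 and 11995 CPM in WT (5.06 ± 0.88, adjusted p = 8.49e-05), and KRT6A had 19322, 32408 and 47558 CPM in DIK, against 24.5, 53.04 and 1671 CPM in WT (7.68 ± 0.85, adjusted p = 5.77e-07). ANXA1, a membrane-binding protein abundant in squamous cells, had 5356, 16761 and 63534 CPM in DIK, against 118, 522 and 1101 CPM in WT (5.59 ± 0.52, adjusted p = 7.32e-08), and its difference varied over the sites.

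**Figure D3:**
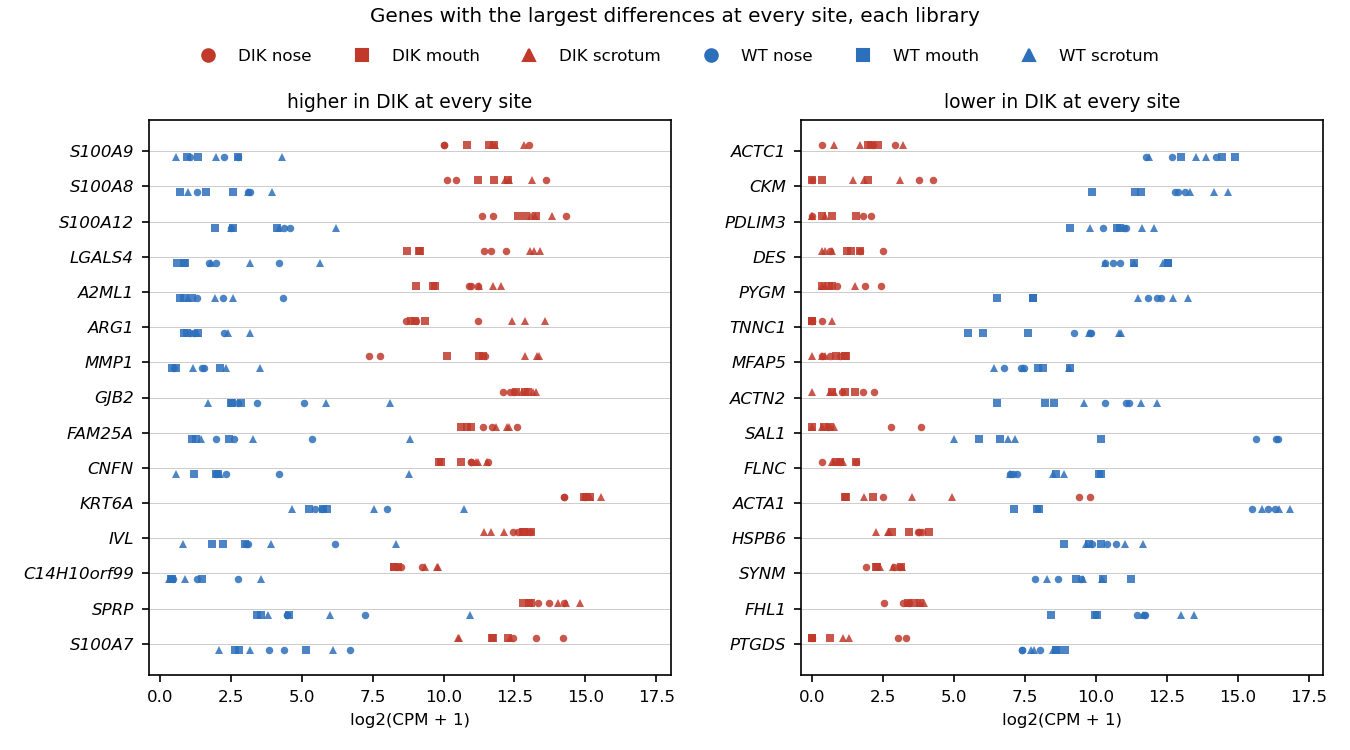
Level of the 15 genes with the largest smallest site difference in each direction, as log2(CPM + 1), with a mark for each of the 18 libraries (DIK red and above, WT blue and below; circles nose, squares mouth, triangles scrotum). Genes were ranked among shared genes with at least 10 CPM on average in the higher genotype at every site. In the left panel all red marks of a gene lie to the right of its blue marks, and in the right panel all lie to the left.

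Most tested basal keratinocyte, desmosome and cornified envelope genes were higher. Of 13 tested basal keratinocyte genes, 11 rose and 9 of these were shared over the sites, with a median log2 difference of 4.05. DST, a plakin that links keratin to the cell base, fell (-0.62, adjusted p = 0.00599), but was not called without the mouth libraries (adjusted p = 0.0725) or the scrotum libraries (0.0546). CDH3, the placental cadherin of basal cells, had 46.8, 158 and 224 CPM in DIK, against 0.9998, 2.93 and 12.4 CPM in WT (5.16 ± 0.44, adjusted p = 2.15e-08), and all DIK values lay above all WT values. ITGA6, a chain of the integrin that binds basal cells to laminin, had 231, 746 and 1379 CPM in DIK, against 36.4, 100.5 and 149 CPM in WT (3.16 ± 0.42, adjusted p = 4.43e-06) and differed least at the nose. TP63, the master regulator of squamous identity, had 44.2, 57.6 and 91.2 CPM in DIK, against 0, 5.25 and 37.7 CPM in WT (3.55 ± 0.70, adjusted p = 3.79e-04). Its site differences were 3.57 at the nose, 6.06 at the mouth and 1.88 at the scrotum (interaction adjusted p = 0.00736), the smallest at the site of WT scrotum replicate 2.

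Of 15 tested squamous transcription factors, 14 rose and 10 were shared (median 3.41). PITX1, a homeobox factor of oral epithelium and hindlimb, had 7.26, 11.96 and 129 CPM in DIK, against 0, 0.836 and 3.25 CPM in WT (5.11 ± 0.42, adjusted p = 1.64e-08). KLF5, a zinc finger factor of dividing epithelial cells, had 21.8, 32.9 and 56.0 CPM in DIK, against 0, 1.82 and 17.4 CPM in WT (3.59 ± 0.46, adjusted p = 3.34e-06). OVOL1, which moves keratinocytes from division to differentiation, had 18.9, 41.1 and 72.7 CPM in DIK, against 0, 0.482 and 15.6 CPM in WT (4.57 ± 0.61, adjusted p = 8.43e-06). In all of these the DIK range lay above the WT range. The desmosome and adherens junction list had 11 of 12 members higher, 10 of them shared, with a median of 5.36. DSC2, a desmosomal cadherin, had 322, 612 and 1392 CPM in DIK, against 0.174, 5.11 and 13.4 CPM in WT (6.99 ± 0.69, adjusted p = 1.64e-07). PERP, which desmosomes need to hold and which p53 can induce, had 7877, 10258 and 12714 CPM in DIK, against 13.7, 77.9 and 7470.3 CPM in WT (5.76 ± 1.34, adjusted p = 0.00139). The top WT value of PERP, in WT scrotum replicate 2, nearly reached the lowest DIK value, and the call of PERP was lost without the nose libraries (adjusted p = 0.0524).

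Cornified envelope genes rose in 12 of 14 tested members, 9 of them shared (median 6.29). IVL (involucrin), an early scaffold of the envelope, had 2775, 6344 and 8755 CPM in DIK, against 0.7498, 7.24 and 319.8 CPM in WT (7.90 ± 1.24, adjusted p = 3.77e-05). SPRP, a small proline-rich protein that is cross-linked into the envelope, had 7136, 13393 and 28383 CPM in DIK, against 9.79, 21.5 and 1976 CPM in WT (7.39 ± 1.03, adjusted p = 8.89e-06). CRNN (cornulin), a marker of oral and oesophageal lining, had 9.77, 1380.4 and 2915 CPM in DIK, against 0.803, 1.82 and 19.1 CPM in WT (6.69 ± 0.80, adjusted p = 1.62e-06), and its DIK range overlapped the WT range across sites though not within any site. Of 15 epidermal proteases and inhibitors 13 rose, but only 7 were shared, and this became 12 without WT nose replicate 1 and WT scrotum replicate 2. KLK6, a kallikrein protease, was shared, with 123, 1227 and 3321 CPM in DIK, against 0, 1.49 and 6.29 CPM in WT (8.94 ± 0.96, adjusted p = 5.61e-07). KLK7, which cuts the junctions between corneocytes, was not: its site differences were 9.35 at the nose, 10.23 at the mouth and 3.79 at the scrotum (interaction adjusted p = 0.0224), and its call was lost without the nose libraries (adjusted p = 0.212) or the mouth libraries (0.246). CASP14, a caspase of terminal keratinocyte differentiation, differed by 8.44 at the nose, 9.48 at the mouth and 1.33 at the scrotum (interaction adjusted p = 0.00465), and its call was lost without WT mouth replicate 2 (adjusted p = 0.0510) or 3 (0.0523), without the nose libraries (adjusted p = 0.415) and without the mouth libraries (adjusted p = 0.447). For the epidermal lipid barrier 6 of 11 genes rose, and 10 did without the same pair of WT libraries.

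Genes of simple and glandular epithelium did not follow. Of 18 measured members 12 were tested. Of these 5 fell, 1 at every site, and the others did not pass the test (median -1.39). Over all tested genes 31.5% were lower and 10.3% lower at every site. KRT8, a keratin of simple epithelium, had 2.41, 21.2 and 56.3 CPM in DIK, against 35.5, 139.97 and 1852 CPM in WT (-4.37 ± 0.84, adjusted p = 2.87e-04), with overlap at a site. Tight junction genes were divided: of 11 tested, 5 rose, 2 of them at every site, 2 fell and 4 did not pass the test (median 1.02). CLDN1, a tight junction claudin of the epidermis, had 199, 283 and 352 CPM in DIK, against 2.87, 8.73 and 301 CPM in WT (3.97 ± 0.78, adjusted p = 3.40e-04). CLDN7, a claudin of glandular and simple epithelium, had 1.33, 2.68 and 7.24 CPM in DIK, against 1.83, 16.3 and 73.9 CPM in WT (-2.70 ± 0.57, adjusted p = 6.59e-04). Both claudins differed in size over the sites (interaction adjusted p = 0.0459 for CLDN1 and 0.0402 for CLDN7).

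Mitosis genes had the largest share of members higher at every site among the lists with at least 8 tested members. All 22 rose, 21 of them at every site, with a median log2 difference of 3.49, and their summed level was 203 to 426 CPM in DIK, against 15.9 to 77.5 CPM in WT. UBE2C, which hands ubiquitin to the complex that ends mitosis, had 26.9, 38.5 and 72.9 CPM in DIK, against 0, 0.784 and 6.09 CPM in WT (5.23 ± 0.38, adjusted p = 3.03e-09). TPX2, which activates the spindle kinase Aurora A, had 8.71, 13.9 and 27.8 CPM in DIK, against 0, 1.06 and 2.93 CPM in WT (3.38 ± 0.26, adjusted p = 7.02e-09). CCNB1, the cyclin of mitotic entry, had 14.95, 26.7 and 35.6 CPM in DIK, against 0, 0.523 and 4.06 CPM in WT (4.73 ± 0.42, adjusted p = 4.01e-08), and its kinase CDK1 had 5.32, 15.02 and 18.1 CPM in DIK, against 0, 0.727 and 2.23 CPM in WT (4.08 ± 0.37, adjusted p = 4.70e-08). In each of these genes every DIK library lay above every WT library. Levels in WT were near the counting floor, so the size of these folds rests on few WT counts. A member as scarce in WT as CDK1 passes the filter through the DIK groups alone, so the count of risers also rests in part on the filter. The interaction was called for 1 of the 22, CENPF, a kinetochore protein that differed by 4.36 at the nose, 3.58 at the mouth and 2.57 at the scrotum.

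S-phase genes rose by less. Of 15 replication licensing genes 11 rose, 9 at every site (median 1.89), and the remainder did not pass the test. MCM4, a helicase subunit, had 7.74, 12.6 and 29.9 CPM in DIK, against 1.75, 2.55 and 5.07 CPM in WT (2.37 ± 0.23, adjusted p = 1.39e-07), and MCM3, another, had 9.92, 19.6 and 25.1 CPM in DIK, against 0, 2.61 and 6.18 CPM in WT (2.50 ± 0.32, adjusted p = 2.90e-06). Of 18 genes of DNA synthesis and nucleotide supply 11 rose (median 0.73). PCNA, the clamp that holds DNA polymerase, had 26.8, 39.6 and 56.3 CPM in DIK, against 3.82, 6.42 and 11.4 CPM in WT (2.45 ± 0.17, adjusted p = 2.13e-09). RRM2, which makes deoxynucleotides, had 18.8, 30.3 and 63.7 CPM in DIK, against 0, 0.7498 and 5.68 CPM in WT (4.73 ± 0.42, adjusted p = 3.88e-08). PCNA was among the evenly raised of these, with site differences of 2.33 at the nose, 2.37 at the mouth and 2.63 at the scrotum.

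Chromatin copying genes rose in 10 of 11 tested members, 4 of them shared. EZH2, the methyltransferase that writes the repressive H3K27 mark, had 22.7, 28.8 and 34.2 CPM in DIK, against 0, 1.67 and 5.48 CPM in WT (3.86 ± 0.28, adjusted p = 2.92e-09), with a clear gap between the groups. Among 13 genes of the E2F and RB family, 7 rose and 3 fell. TFDP1, the partner of E2F factors, had 17.2, 19.9 and 30.6 CPM in DIK, against 6.27, 9.46 and 13.2 CPM in WT (1.26 ± 0.17, adjusted p = 6.93e-06). RBL2, the RB relative of resting cells, had 1.78, 6.80 and 7.98 CPM in DIK, against 9.74, 14.2 and 23.0 CPM in WT (-1.53 ± 0.23, adjusted p = 2.27e-05), every DIK value being below every WT value. The inhibitors of the cyclin D kinases went opposite ways. CDKN2B had 419.5, 806 and 1427 CPM in DIK, against 1.25, 3.85 and 291 CPM in WT (6.31 ± 1.18, adjusted p = 2.38e-04), whereas CDKN2C had 1.25, 2.14 and 3.39 CPM in DIK, against 3.85, 9.09 and 10.9 CPM in WT (-1.85 ± 0.23, adjusted p = 1.85e-06). CDKN1A, the inhibitor induced by p53, had 95.7, 145 and 812 CPM in DIK, against 9.55, 71.0 and 136 CPM in WT (2.38 ± 0.39, adjusted p = 5.14e-05), with site differences of 0.71 at the nose, 3.43 at the mouth and 2.71 at the scrotum (interaction adjusted p = 0.0122).

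Ligands of the EGF receptor family moved in both directions, and most moves were shared over the sites. Of 14 tested ligands, receptors and inhibitors 9 rose and 4 fell, with 8 and 2 of these shared. EPGN (epigen), an EGF receptor ligand, had 11.04, 28.8 and 59.2 CPM in DIK, against 0, 0.261 and 3.82 CPM in WT (5.67 ± 0.37, adjusted p = 1.15e-09). HBEGF, a membrane-held ligand of wound edges, had 99.9, 265 and 1238 CPM in DIK, against 8.99, 33.1 and 87.4 CPM in WT (3.32 ± 0.34, adjusted p = 2.23e-07). EREG (epiregulin) had 35.3, 75.2 and 354 CPM in DIK, against 0, 1.4996 and 63.5 CPM in WT (5.07 ± 0.81, adjusted p = 5.37e-05), and the highest WT value exceeded the lowest DIK value. NRG1, which binds ERBB3 and ERBB4, had 15.2, 40.4 and 52.4 CPM in DIK, against 0, 1.70 and 4.65 CPM in WT (4.49 ± 0.55, adjusted p = 2.40e-06). Of these, HBEGF was well above the counting floor in every WT library, and all were counted in every tumour. BTC (betacellulin), a ligand of EGFR and ERBB4, went the other way, with 0, 0.266 and 0.968 CPM in DIK, against 3.85, 5.02 and 11.8 CPM in WT (-4.28 ± 0.42, adjusted p = 1.20e-07).

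Among the receptors, ERBB3, the kinase-poor partner, had 44.8, 55.8 and 105 CPM in DIK, against 3.76, 11.3 and 39.4 CPM in WT (2.14 ± 0.36, adjusted p = 6.28e-05) and was shared. EGFR had 31.1, 42.6 and 49.1 CPM in DIK, against 6.75, 11.98 and 43.6 CPM in WT (1.35 ± 0.28, adjusted p = 4.76e-04) and was called, with overlap at a site. LRIG1, which removes ERBB receptors from the membrane and marks resting epithelial stem cells, had 0, 1.11 and 2.49 CPM in DIK, against 3.45, 12.5 and 14.7 CPM in WT (-3.25 ± 0.37, adjusted p = 6.88e-07), and its site differences were close to one another at -2.79 at the nose, -2.93 at the mouth and -2.77 at the scrotum. ERRFI1, an inhibitor that the pathway itself induces, had 6.25, 17.7 and 106 CPM in DIK, against 1.4996, 4.18 and 5.73 CPM in WT (2.92 ± 0.45, adjusted p = 3.00e-05). LRIG1 was thus lower and ERRFI1 higher in DIK at every site.

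Of 15 tested targets and brakes of ERK signalling, 10 rose and 1 fell, and 4 were shared. DUSP7, a phosphatase of ERK, had 20.6, 37.5 and 58.1 CPM in DIK, against 4.90, 9.79 and 17.0 CPM in WT (1.93 ± 0.20, adjusted p = 1.80e-07), with site differences of 2.02 at the nose, 1.77 at the mouth and 1.91 at the scrotum. SPRED1, an inhibitor of RAF activation, had 29.3, 49.3 and 87.7 CPM in DIK, against 7.27, 10.96 and 19.1 CPM in WT (2.08 ± 0.25, adjusted p = 1.62e-06). EPHA2, an ephrin receptor and ERK target, had 117, 157 and 558 CPM in DIK, against 22.6, 37.4 and 61.3 CPM in WT (2.66 ± 0.30, adjusted p = 6.10e-07) and rose most at the scrotum (interaction adjusted p = 0.0312). DUSP4, another phosphatase of this family, fell (-1.45, adjusted p = 3.98e-04). PHLDA1, an ERK-induced gene, was above WT at 2 of the 3 sites: its site differences were -0.68 at the nose, 4.40 at the mouth and 4.26 at the scrotum (interaction adjusted p = 2.08e-04), and its call was lost without the mouth libraries (adjusted p = 0.133) or the scrotum libraries (0.107). JUNB, an AP-1 subunit, had 82.3, 146 and 411 CPM in DIK, against 5.73, 7.50 and 40.4 CPM in WT (3.97 ± 0.32, adjusted p = 1.05e-08). Its differences of 3.86 at the nose, 3.90 at the mouth and 4.38 at the scrotum left a clear gap between DIK and WT at each site.

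**Figure D4:**
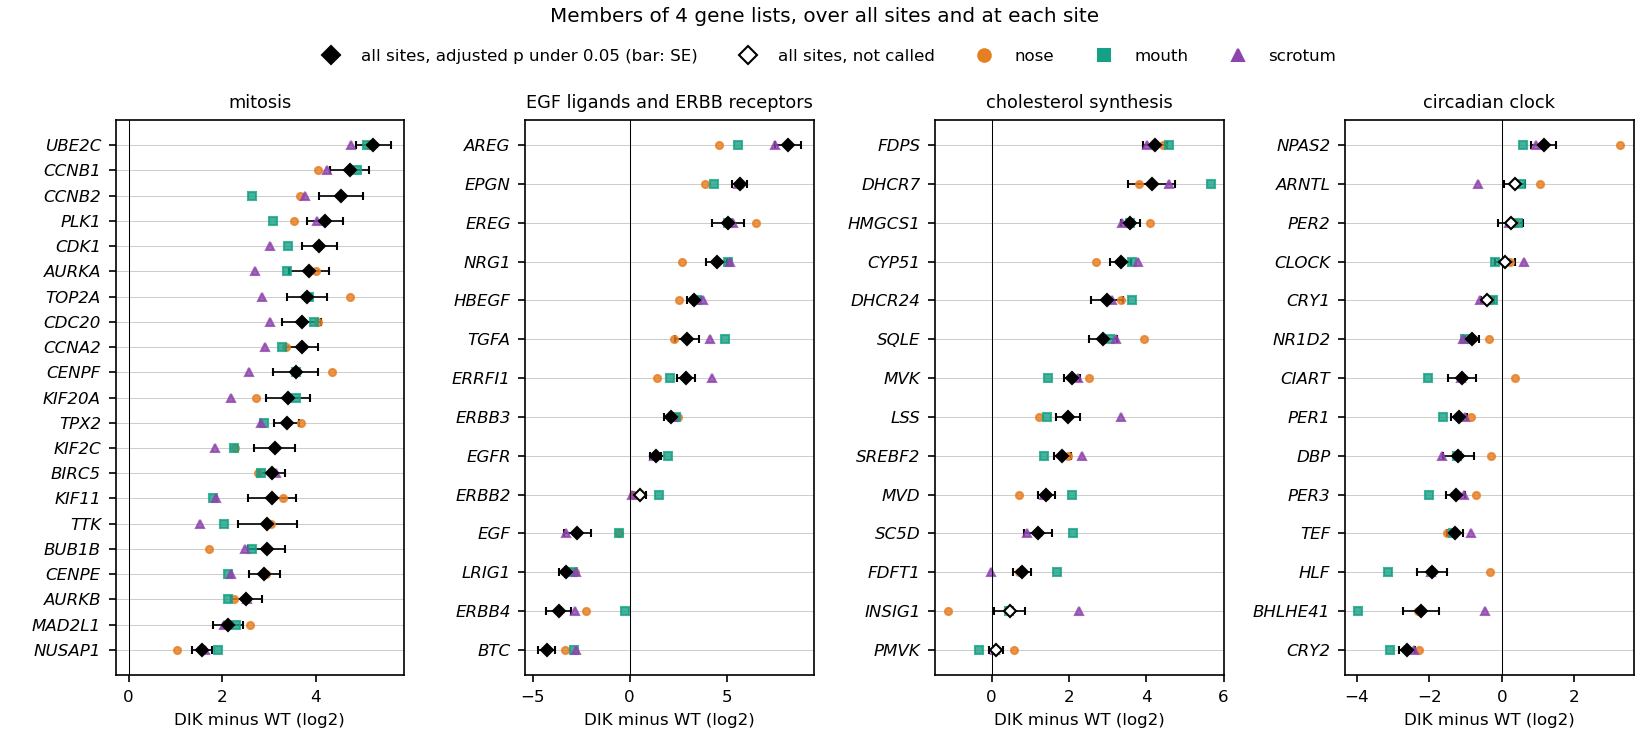
Log2 difference (DIK minus WT) of tested members of 4 gene lists, with the site-adjusted value and its SE in black (open where not called) and the difference of mean log2 CPM at each site in colour. BUB1 is not drawn because the WT libraries held at most 3 counts of it; black marks lie outside the coloured ones where counts are low, because only the site values carry the prior count of 2. Mitosis genes lie to the right of 0 at every site, while EGF family genes fall on both sides.

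Most tested genes of cholesterol synthesis rose. Of 16 tested genes 14 rose and 12 were shared, with a median log2 difference of 2.48, and the summed level was 1511 to 1954 CPM in DIK, against 159.9 to 311 CPM in WT. The summed ranges were far apart, and the fit without WT nose 1 and WT scrotum 2 gave the same counts. FDPS, which makes farnesyl diphosphate, had 557, 745 and 1032 CPM in DIK, against 15.4, 34.4 and 72.2 CPM in WT (4.22 ± 0.31, adjusted p = 4.67e-09). HMGCS1, an early synthase of the pathway, had 157, 185 and 302 CPM in DIK, against 3.82, 16.2 and 33.9 CPM in WT (3.59 ± 0.25, adjusted p = 2.13e-09). All DIK values of both genes lay above all WT values. INSIG1, which holds back the SREBP activator, was not called (0.47, adjusted p = 0.318), and its site differences were -1.12 at the nose, 0.44 at the mouth and 2.26 at the scrotum (interaction adjusted p = 2.08e-04). FDFT1, which starts the sterol branch, was called (0.79, adjusted p = 0.00677) with 0.70 at the nose, 1.69 at the mouth and -0.02 at the scrotum, and its call was lost without the nose libraries (adjusted p = 0.0594) and without the mouth libraries (0.31, adjusted p = 0.259). INSIG1 became called without the nose libraries (1.28, adjusted p = 0.0141) and as the mean of the 3 site differences (0.53, adjusted p = 0.0174).

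Proteasome and ribosome biogenesis genes that rose did so by less. Of 20 proteasome genes 14 rose (median 0.63), although 10 did when libraries were scaled by size alone. PSMB6, a catalytic subunit, had 283, 447 and 612 CPM in DIK, against 83.6, 110.2 and 177 CPM in WT (1.96 ± 0.23, adjusted p = 9.15e-07). Of 18 ribosome biogenesis genes 10 rose (median 0.53), and 7 did with libraries scaled by size alone. NPM1 (nucleophosmin), a nucleolar chaperone, had 159, 291 and 479 CPM in DIK, against 50.2, 71.2 and 139 CPM in WT (1.71 ± 0.20, adjusted p = 1.35e-06), and FBL (fibrillarin), which methylates ribosomal RNA, had 31.2, 41.4 and 61.8 CPM in DIK, against 9.55, 17.2 and 24.1 CPM in WT (1.41 ± 0.15, adjusted p = 4.77e-07). Both were separated over all 18 libraries. SLC38A2, a glutamine carrier, had 496, 816 and 1518 CPM in DIK, against 71.6, 103 and 310.02 CPM in WT (2.77 ± 0.28, adjusted p = 1.65e-07), and ASNS, which makes asparagine, had 36.1, 57.7 and 65.8 CPM in DIK, against 3.397, 7.64 and 31.1 CPM in WT (2.37 ± 0.34, adjusted p = 1.10e-05). In the list of amino acid and one-carbon supply 6 of 15 members rose, 2 at every site, 1 fell and 8 did not pass the test, against 28.5% higher and 11.7% higher at every site over all tested genes.

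Energy genes differed by site. All 17 genes of the TCA cycle were tested, 13 fell, and 3 were shared, while the interaction was called for 16. SDHB, a subunit of succinate dehydrogenase, had 14.6, 18.1 and 22.1 CPM in DIK, against 35.4, 186 and 492 CPM in WT (-2.98 ± 0.41, adjusted p = 6.16e-06). Its site differences were -3.37 at the nose, -1.12 at the mouth and -4.04 at the scrotum (interaction adjusted p = 0.00109). The skeletal muscle sum ran the same way over the WT sites, being lowest in the WT mouth libraries, and its part in this result was not tested. Fatty acid oxidation fell in 14 of 16 genes, 4 of them shared. PPARGC1A, a coactivator that raises mitochondrial number, had 0, 0 and 1.09 CPM in DIK, against 4.18, 16.2 and 30.9 CPM in WT (-5.56 ± 0.46, adjusted p = 1.52e-08), and CPT1B, the muscle form of the carnitine transferase, had 0, 0.484 and 1.90 CPM in DIK, against 5.14, 28.7 and 87.8 CPM in WT (-5.54 ± 0.52, adjusted p = 8.90e-08). Both were near the floor in all tumours.

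Glycolysis did not move as a group: 6 of 17 genes rose and 3 fell, and the interaction was called for 12. With libraries scaled by size alone, 3 rose and 4 fell. SLC2A1, the glucose carrier GLUT1, had 359, 1671 and 2729 CPM in DIK, against 22.2, 68.5 and 116 CPM in WT (4.42 ± 0.54, adjusted p = 1.71e-06) and was shared, with the smallest difference at the nose. ALDOA, the aldolase most abundant in muscle, had 969, 1309 and 2732 CPM in DIK, against 1788, 6874 and 23229 CPM in WT (-2.15 ± 0.34, adjusted p = 3.09e-05). PFKM, the muscle phosphofructokinase, differed by -4.52 at the nose, 0.03 at the mouth and -5.82 at the scrotum (interaction adjusted p = 1.98e-05). Of 14 hypoxia genes outside glycolysis 9 rose and 3 were shared. NDRG1, a stress protein induced by low oxygen, had 28.8, 224 and 521 CPM in DIK, against 7.88, 11.6 and 20.9 CPM in WT (3.87 ± 0.39, adjusted p = 1.67e-07), and CA9, a carbonic anhydrase of the cell surface, had 19.3, 44.3 and 56.1 CPM in DIK, against 1.91, 6.01 and 17.7 CPM in WT (2.13 ± 0.31, adjusted p = 1.49e-05).

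Several proteases that open the matrix rose, and inhibitors moved both ways. Of 17 tested members of the invasion list 9 rose, 7 at every site, and 4 fell, 3 at every site. MMP1, which cuts fibrillar collagen, had 163, 2703 and 10674 CPM in DIK, against 0.347, 1.82 and 10.5 CPM in WT (10.46 ± 0.83, adjusted p = 1.01e-08). The lowest DIK values of MMP1 were at the nose. MMP9, a gelatinase of neutrophils and invading cells, had 32.4, 158 and 359.7 CPM in DIK, against 0, 0.347 and 0.523 CPM in WT (9.28 ± 0.50, adjusted p = 1.51e-10). PLAU (urokinase), which activates plasmin, had 56.1, 229 and 414 CPM in DIK, against 5.32, 16.2 and 40.6 CPM in WT (3.69 ± 0.34, adjusted p = 6.36e-08). Opposite to these, MMP2, the gelatinase of fibroblasts, had 16.2, 22.3 and 52.2 CPM in DIK, against 109, 350.4 and 784 CPM in WT (-3.47 ± 0.46, adjusted p = 4.51e-06). TIMP3, a matrix-bound inhibitor, had 6.05, 12.9 and 22.1 CPM in DIK, against 80.3, 269 and 612 CPM in WT (-4.51 ± 0.36, adjusted p = 1.10e-08), whereas TIMP1, a soluble one, had 47.0, 277 and 1128 CPM in DIK, against 19.1, 52.3 and 114 CPM in WT (2.66 ± 0.39, adjusted p = 1.52e-05).

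Basement membrane genes moved both ways. Of 16 tested, 4 rose, all of them at every site, and 6 fell, 3 at every site. Over all tested genes 28.5% were higher and 31.5% lower, with 11.7% and 10.3% so at every site. The shares called in this list were thus near those over all genes. Among the risers were the laminin chains LAMA3 (2.86 ± 0.44) and LAMB1 (1.24 ± 0.18) and the anchoring fibril collagen COL7A1 (2.96 ± 0.56). LAMB2, a laminin chain of muscle, nerve and vessel, had 3.56, 5.57 and 8.23 CPM in DIK, against 26.8, 55.7 and 126 CPM in WT (-3.47 ± 0.25, adjusted p = 3.46e-09). The laminin chain LAMA2 (-3.47 ± 0.46) and the proteoglycan HSPG2 (-2.09 ± 0.27) were likewise lower at every site.

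All tested skeletal muscle genes were lower, and several were among the 15 genes with the largest falls at every site. The 26 genes of this list fell, 23 of them at every site, with a median log2 difference of -10.87. ACTC1, an actin of heart and developing muscle, had 0.268, 3.15 and 8.09 CPM in DIK, against 3454, 11791 and 30623 CPM in WT (-11.85 ± 0.80, adjusted p = 1.35e-09). CKM, the muscle creatine kinase, had 0, 2.49 and 18.2 CPM in DIK, against 920.03, 7544 and 25652 CPM in WT (-10.87 ± 0.97, adjusted p = 4.46e-08). PYGM, the muscle glycogen phosphorylase, had 0.266, 0.631 and 4.35 CPM in DIK, against 89.7, 3659 and 9611 CPM in WT (-10.87 ± 0.75, adjusted p = 1.95e-09), with site differences of -10.61 at the nose, -7.36 at the mouth and -12.19 at the scrotum. TTN (titin), the spring of the sarcomere, had 0.726, 2.95 and 12.3 CPM in DIK, against 19.9, 11587 and 46621 CPM in WT (-9.99 ± 1.13, adjusted p = 7.61e-07) and fell least at the mouth. Between tumours the muscle sum was uneven, at 965 and 749 CPM in a pair of nose libraries and lower in every other DIK library. Of 17 smooth muscle and pericyte genes 11 fell, 5 at every site, or 9 without WT nose replicate 1 and WT scrotum replicate 2. MYH11, the smooth muscle myosin, had 5.70, 13.4 and 28.5 CPM in DIK, against 23.3, 304 and 8238 CPM in WT (-4.96 ± 0.80, adjusted p = 3.96e-05), with site differences of -3.90 at the nose, -8.61 at the mouth and -2.89 at the scrotum. It thus fell most at the mouth, the reverse of the skeletal genes.

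**Figure D5:**
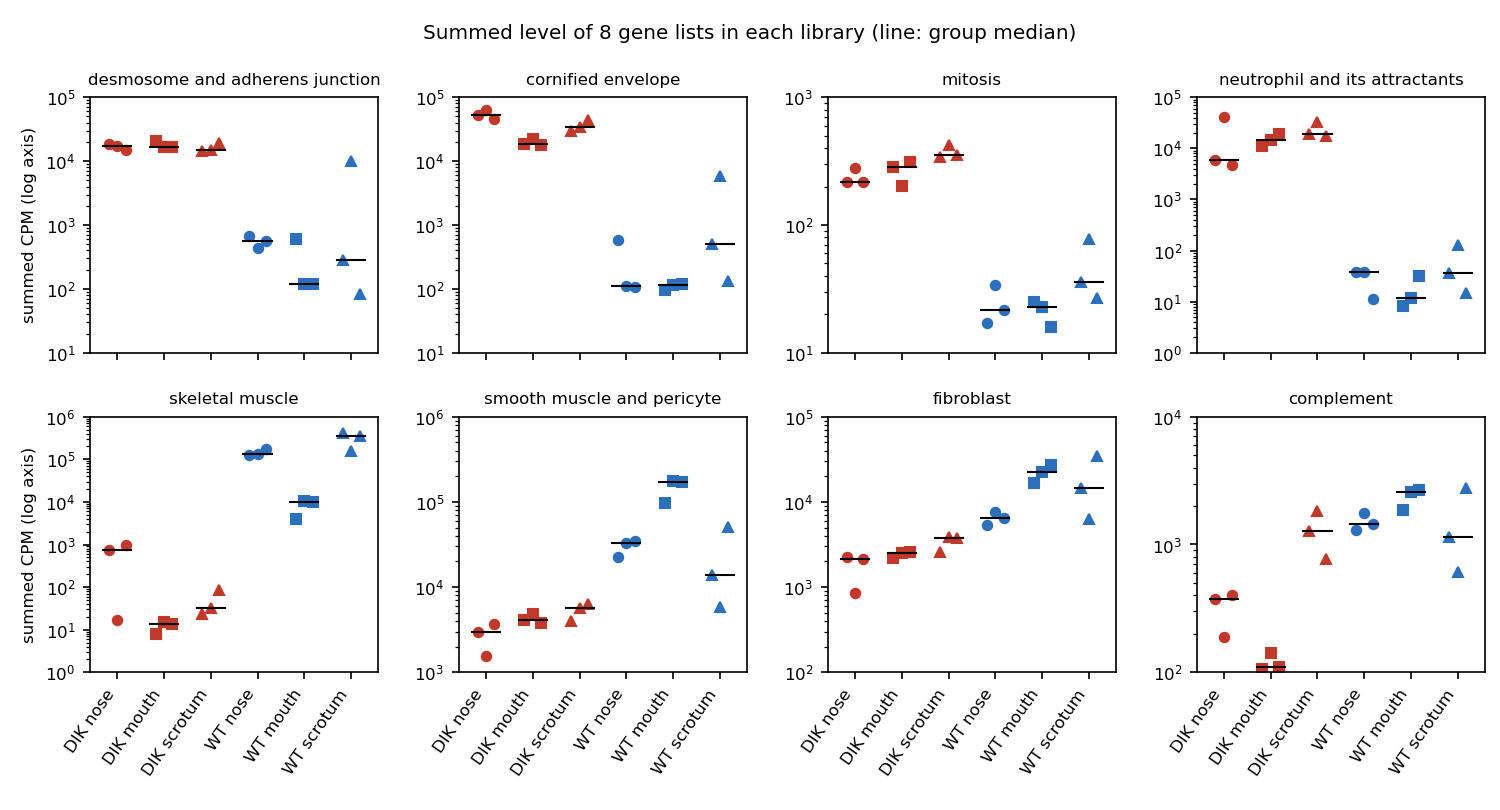
Summed CPM of all measured members of 8 gene lists in each library (log axes; DIK red and left, WT blue and right; line, group median). In every panel but smooth muscle and complement, all DIK libraries lie on one side of all WT libraries. WT scrotum replicate 2 is the WT library with the highest desmosome and cornified sums, still below every DIK library. For complement the scrotum groups overlap.

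Most tested fibroblast and elastic fibre genes fell. Of 17 tested fibroblast genes 15 fell, 12 at every site (median -2.83). MFAP5, a microfibril protein, had 0, 0.544 and 1.26 CPM in DIK, against 84.0, 176 and 546 CPM in WT (-8.51 ± 0.47, adjusted p = 1.85e-10); its p-value was the smallest of this list. DCN (decorin), a small proteoglycan that coats collagen, had 36.0, 116 and 231 CPM in DIK, against 1122, 2062 and 4264 CPM in WT (-4.43 ± 0.43, adjusted p = 9.80e-08). COL1A2, a chain of type I collagen, had 234, 804 and 1490.1 CPM in DIK, against 1893, 5654 and 13629 CPM in WT (-2.57 ± 0.37, adjusted p = 1.02e-05). LUM (lumican), a close relative of decorin, was not called (-0.52, adjusted p = 0.234). Elastic fibre genes fell in 10 of 11 members, 5 of them at every site. FBN1 (fibrillin), the microfibril scaffold, had 7.26, 9.24 and 13.01 CPM in DIK, against 32.5, 38.7 and 157 CPM in WT (-2.49 ± 0.26, adjusted p = 2.63e-07), and LTBP4, which stores TGF-beta on microfibrils, had 3.11, 7.99 and 11.96 CPM in DIK, against 57.3, 90.9 and 265 CPM in WT (-3.86 ± 0.33, adjusted p = 2.15e-08). Activated stroma genes did not rise as a group, with 3 of 17 higher and 10 lower. COL12A1, a collagen of stressed connective tissue, was the one shared riser, with 32.9, 61.5 and 109.9 CPM in DIK, against 10.04, 15.3 and 44.9 CPM in WT (1.59 ± 0.20, adjusted p = 3.02e-06).

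Most tested complement genes were lower as well. Of 13 tested, 8 fell, 7 at every site (median -3.13). CFD (factor D), a protease of the alternative pathway made by fat and stroma, had 9.46, 15.1 and 48.1 CPM in DIK, against 135, 181 and 332 CPM in WT (-3.42 ± 0.31, adjusted p = 5.80e-08). SERPING1, the inhibitor of the C1 complex, had 12.5, 30.5 and 108 CPM in DIK, against 210.2, 536 and 1285 CPM in WT (-4.13 ± 0.48, adjusted p = 1.03e-06), and C1S, a protease of that complex, had 3.56, 7.51 and 37.5 CPM in DIK, against 77.3, 218 and 629 CPM in WT (-4.82 ± 0.59, adjusted p = 2.15e-06). C3, the central component, had 0.242, 1.67 and 15.8 CPM in DIK, against 6.50, 34.7 and 121 CPM in WT (-3.54 ± 0.68, adjusted p = 3.11e-04). Their summed level was 106 to 1812 CPM in DIK, against 614 to 2777 CPM in WT, and the scrotum tumours held the highest DIK values.

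Most tested markers of vessels, fat and nerve were lower too. Of 17 endothelial genes 13 fell and 1 rose, with 4 falls at every site. PECAM1, an adhesion protein of endothelium, had 31.7, 46.7 and 76.3 CPM in DIK, against 43.2, 126 and 400.2 CPM in WT (-1.65 ± 0.32, adjusted p = 2.14e-04). The one that rose was FLT1, a VEGF receptor (0.82 ± 0.25, adjusted p = 0.00879), whose call was lost without the scrotum libraries (adjusted p = 0.138). Of 10 adipocyte genes 7 fell and 1 rose. PLIN1, ADIPOQ and PLIN4 had at most 3 counts over all DIK libraries and pass the filter through the WT groups alone. The adipocyte count thus rests in part on the filter. LPL, the lipase that feeds fat and muscle, had 5.34, 13.6 and 33.6 CPM in DIK, against 56.0, 151 and 703 CPM in WT (-3.83 ± 0.48, adjusted p = 2.81e-06). Of 8 Schwann cell and nerve genes 7 fell, 5 at every site. PMP22, a myelin protein, had 6.23, 7.78 and 11.04 CPM in DIK, against 27.4, 82.0 and 253 CPM in WT (-3.43 ± 0.33, adjusted p = 1.01e-07). The median log2 difference was -1.16 for endothelial, -3.19 for adipocyte and -3.71 for nerve genes.

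Immune genes divided by cell type. Of 14 measured genes of neutrophils and their attractants 11 were tested. All 11 rose, 8 at every site, with a median log2 difference of 8.03. A member as scarce in WT as MMP9 passes the filter through the DIK groups alone, so this count rests in part on the filter. S100A8, S100A9, S100A12, IL1A and MMP9 in this list are also made by epithelial or other cells. CXCR2, the chemokine receptor of neutrophils themselves, had 6.64, 12.6 and 20.3 CPM in DIK, against 0, 0.174 and 4.46 CPM in WT (4.13 ± 0.54, adjusted p = 4.09e-06). IL1A, an alarm cytokine stored in keratinocytes, had 12.2, 17.9 and 185 CPM in DIK, against 0, 0 and 11.4 CPM in WT (5.87 ± 0.74, adjusted p = 4.51e-06). Macrophage genes were mostly lower: of 12 tested, 8 fell and 1 rose, and in each of them DIK and WT overlapped at some site. The riser was not called under the median-of-ratios or upper-quartile scaling or library size alone. CSF1R, the receptor that macrophages live on, had 4.36, 7.51 and 11.96 CPM in DIK, against 7.64, 21.0 and 25.9 CPM in WT (-1.37 ± 0.21, adjusted p = 2.57e-05). C1QB, a macrophage complement subunit, differed by -0.11 at the nose, -1.84 at the mouth and -2.23 at the scrotum (interaction adjusted p = 0.0253). T, NK, B and plasma cell genes were mostly too low to test, with 1 and 3 tested members.

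Of 12 tested genes of class I antigen presentation 7 fell, 2 at every site, and 5 did not pass the test (median -0.64). Over all tested genes 31.5% were lower and 10.3% lower at every site. SLA-1, a pig class I heavy chain with close relatives, had 259.6, 460.2 and 779 CPM in DIK, against 509, 1047 and 1395 CPM in WT (-1.19 ± 0.25, adjusted p = 5.62e-04). The ranges overlapped across sites but not within any. Interferon response genes did not move together. Of 19 tested, 4 rose and 3 fell, the median was 0.07, and the interaction was called for 9. ISG15, a ubiquitin-like protein, was the shared member, with 40.1, 101 and 1755 CPM in DIK, against 6.90, 22.2 and 33.5 CPM in WT (3.11 ± 0.57, adjusted p = 1.48e-04) and site differences of 5.67 at the nose, 1.61 at the mouth and 2.44 at the scrotum. MX1, a GTPase against viruses, was not called over all sites (0.36, adjusted p = 0.583), while its site differences were 2.66 at the nose, -1.40 at the mouth and 0.32 at the scrotum (interaction adjusted p = 3.05e-04). OAS1, an RNA sensor, was likewise not called (0.77, adjusted p = 0.107) and differed by 2.72 at the nose, -0.02 at the mouth and -0.07 at the scrotum. OAS1 became called without WT mouth replicate 2 (adjusted p = 0.0447), WT scrotum replicate 3 (0.0247) or the scrotum libraries (0.0361), with limma-voom (0.0118) and as the mean of the 3 site differences (0.00223). MX1 became called without the mouth libraries (1.48, adjusted p = 0.0335). In ISG15, MX1 and OAS1 the largest difference was at the nose.

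Other growth signals gave single shared genes rather than whole lists. Among 17 TGF-beta and BMP genes 7 rose and 5 fell, with 2 in each direction at every site. Over all tested genes 28.5% were higher and 31.5% lower, with 11.7% and 10.3% so at every site. The shares of this list that were lower, and those at every site, were thus near those over all genes. ID1, a target of BMP that blocks differentiation factors, had 144, 226 and 350.3 CPM in DIK, against 7.64, 17.0 and 31.7 CPM in WT (3.91 ± 0.25, adjusted p = 6.73e-10), and BMP2 itself had 5.57, 11.2 and 156 CPM in DIK, against 1.06, 1.91 and 5.02 CPM in WT (3.52 ± 0.43, adjusted p = 2.09e-06). TGFB2 had 3.26, 11.3 and 17.3 CPM in DIK, against 22.9, 51.2 and 61.5 CPM in WT (-2.13 ± 0.27, adjusted p = 2.37e-06). Each of these genes had a DIK range that did not meet the WT range. NRARP, a feedback target of Notch, had 6.29, 12.1 and 31.1 CPM in DIK, against 0, 0.364 and 3.65 CPM in WT (3.87 ± 0.52, adjusted p = 5.60e-06). Of 12 Notch genes 6 rose and 1 fell. WNT10A, a WNT ligand of skin and its appendages, rose at every site (3.86 ± 0.44, adjusted p = 7.83e-07), and SFRP2, a WNT-binding inhibitor of stroma, fell at every site (-6.08 ± 0.83, adjusted p = 1.01e-05). IGF2, a growth factor of the insulin family, had 9.14, 12.6 and 40.2 CPM in DIK, against 44.0, 114 and 212 CPM in WT (-2.73 ± 0.30, adjusted p = 4.32e-07), and IGFBP6, which binds IGF2, had 6.05, 21.4 and 86.9 CPM in DIK, against 112, 213 and 1186 CPM in WT (-3.65 ± 0.34, adjusted p = 6.80e-08). In the insulin and IGF list 6 of 13 fell and 2 rose.

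Most tested circadian clock genes were lower. Of 14 clock genes 9 fell, 3 at every site, and 1 rose (median -1.14). CRY2, a repressor of the clock, had 1.87, 6.17 and 9.43 CPM in DIK, against 16.2, 40.2 and 60.6 CPM in WT (-2.62 ± 0.22, adjusted p = 2.12e-08), with site differences of -2.28 at the nose, -3.08 at the mouth and -2.42 at the scrotum. TEF, a transcription factor driven by the clock, had 3.15, 4.25 and 6.40 CPM in DIK, against 7.27, 10.7 and 19.1 CPM in WT (-1.30 ± 0.22, adjusted p = 6.25e-05), and PER1, another repressor, had 2.49, 4.36 and 7.44 CPM in DIK, against 7.11, 10.005 and 16.5 CPM in WT (-1.19 ± 0.22, adjusted p = 1.56e-04). NPAS2, an activator, was the riser (1.15, adjusted p = 0.00748), and its call was lost without the nose libraries (0.58, adjusted p = 0.136). FKBP5, which glucocorticoids induce and which restrains their receptor, had 13.1, 18.5 and 22.0 CPM in DIK, against 67.8, 128 and 213 CPM in WT (-2.91 ± 0.26, adjusted p = 3.33e-08), and its site differences of -2.67 at the nose, -2.96 at the mouth and -2.72 at the scrotum were among the most even of the lower genes. The time of day at which tissue was taken does not appear in the sources used here.

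Genes linked to p53 gave a mixed picture, with 8 of 14 higher and 3 lower. GADD45A, a stress sensor of DNA damage, had 28.3, 39.4 and 247 CPM in DIK, against 3.14, 9.58 and 17.0 CPM in WT (2.91 ± 0.30, adjusted p = 2.30e-07). SESN1 (sestrin), which restrains mTOR signalling, had 10.2, 19.6 and 27.4 CPM in DIK, against 20.4, 52.7 and 203 CPM in WT (-1.90 ± 0.36, adjusted p = 1.80e-04). Many members of this list answer to other stresses as well. Of 15 immediate early and heat shock genes 12 rose, 5 of them at every site.

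Some shared differences were nearly the same size at all 3 sites. Among shared higher genes with at least a 4-fold difference, PPP1R13L, an inhibitor of p53 that is expressed in epithelium, ranked as the most even, with 2.78 at the nose, 2.79 at the mouth and 2.76 at the scrotum. NME1, a nucleoside diphosphate kinase, had 233, 327 and 389 CPM in DIK, against 32.5, 48.1 and 134 CPM in WT (2.50 ± 0.25, adjusted p = 1.77e-07), and site differences of 2.58 at the nose, 2.62 at the mouth and 2.60 at the scrotum. RAC1, a small GTPase of cell spreading, had 146, 205 and 316 CPM in DIK, against 22.9, 37.6 and 82.2 CPM in WT (2.37 ± 0.20, adjusted p = 1.97e-08), and site differences of 2.35 at the nose, 2.41 at the mouth and 2.44 at the scrotum. PTBP3, a splicing regulator, had 99.2, 144 and 202 CPM in DIK, against 10.04, 13.8 and 47.5 CPM in WT (3.01 ± 0.27, adjusted p = 4.40e-08). In NME1, RAC1 and PTBP3 every DIK library exceeded every WT library. YWHAZ, a 14-3-3 adaptor, combined an even rise with a high level, at 6092, 7914 and 10519.8 CPM in DIK, against 333, 644 and 1491 CPM in WT (3.47 ± 0.33, adjusted p = 9.02e-08).

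On the lower side, NFIB, a transcription factor of hair follicle and connective tissue, had 8.19, 12.9 and 31.7 CPM in DIK, against 69.8, 132 and 344 CPM in WT (-3.35 ± 0.25, adjusted p = 4.13e-09), with site differences of -3.31 at the nose, -3.37 at the mouth and -3.22 at the scrotum. CFL2, the muscle cofilin, had 3.14, 5.84 and 10.3 CPM in DIK, against 89.4, 245 and 467 CPM in WT (-5.26 ± 0.36, adjusted p = 1.37e-09), and SVIL (supervillin), which ties actin to the membrane, had 19.3, 23.6 and 26.7 CPM in DIK, against 126, 279 and 546 CPM in WT (-3.55 ± 0.27, adjusted p = 5.28e-09). TPM1, a tropomyosin of many muscle types, had 174, 237 and 384 CPM in DIK, against 4196, 6102 and 13341 CPM in WT (-4.90 ± 0.30, adjusted p = 5.78e-10). TPM1 differed by -4.71 at the nose, -4.79 at the mouth and -5.04 at the scrotum, and its interaction adjusted p was 0.894, against 1.58e-04 for TTN. USP11, a deubiquitinase, had 4.36, 6.05 and 10.7 CPM in DIK, against 14.0, 31.6 and 44.2 CPM in WT (-2.26 ± 0.23, adjusted p = 2.49e-07), and ZDHHC4, a palmitoyl transferase, had 5.63, 11.6 and 14.8 CPM in DIK, against 38.2, 49.7 and 71.9 CPM in WT (-2.30 ± 0.19, adjusted p = 1.33e-08). Neither overlapped between DIK and WT in any library.

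In 68 of the 7743 called genes the DIK libraries lay wholly on the other side of WT at a site, against the direction of the call. This count required no call of the interaction, and groups of 3 libraries can lie apart by chance. The genes named next were also called in the interaction test. TPM3, a tropomyosin of slow muscle and of most other cells, was called as lower (-2.45 ± 0.78, adjusted p = 0.0112) but differed by -3.66 at the nose, 1.39 at the mouth and -3.83 at the scrotum (interaction adjusted p = 7.58e-06). NDUFS7, a subunit of respiratory complex I, was called as lower (-1.95 ± 0.51, adjusted p = 0.00306) and differed by -2.34 at the nose, 0.47 at the mouth and -3.59 at the scrotum (interaction adjusted p = 3.20e-05). In both the mouth was the exception. The WT mouth libraries also had the lowest skeletal muscle sums of the WT libraries, and their part in these reversals was not tested. Both calls were lost without the nose libraries (adjusted p = 0.334 for TPM3 and 0.0914 for NDUFS7) and without the scrotum libraries (0.326 and 0.0754). LGALSL, a galectin-like protein, was called as higher (1.44 ± 0.59, adjusted p = 0.0434) and differed by 2.61 at the nose, 2.65 at the mouth and -1.53 at the scrotum (interaction adjusted p = 7.58e-06). PFKL, the liver phosphofructokinase, was called as higher (0.90 ± 0.34, adjusted p = 0.0276) with -0.55 at the nose, 1.23 at the mouth and 1.95 at the scrotum. CTNNB1 (beta-catenin), the link between cadherins and actin, was called as higher (0.62 ± 0.26, adjusted p = 0.0456) with -0.42 at the nose, 0.94 at the mouth and 1.27 at the scrotum. The calls of LGALSL and CTNNB1 were lost under several other scalings and filters. That of LGALSL was also lost without any 1 of the nose or mouth libraries (adjusted p up to 0.106), and that of PFKL without DIK mouth replicate 2, WT mouth replicate 2 or any 1 of the WT scrotum libraries (up to 0.0633). That of CTNNB1 was lost without any 1 of the WT mouth, WT scrotum or DIK scrotum libraries, or without DIK mouth replicate 1 or 2 (up to 0.0908).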

How the data were processed

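Pig tissue RNA was sequenced in 18 libraries. Per the labels' protocols, samples were stored in RNAlater and TRIzol was used for RNA extraction, followed by library preparation with the VAHTS mRNA-seq V3 kit. fastp, HISAT2 2.1.0 and HTSeq 0.11.2 are named in the submitters' processing notes. The deposited table holds the authors' whole-number read counts per gene and library, with no normalization. The genome build, annotation and strand setting do not appear in the sources used here, and antisense and near-identical genes cannot be told apart. Of 27339 symbols, 26838 matched a RefSeq table of Sscrofa11.1, used for names only.

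Groups came from the labels. TMM-scaled counts went into edgeR 4.0.16 under R 4.3.3 (robust quasi-likelihood fit; genotype in a model of site plus genotype; default filter with a minimum count of 10 and total of 15, on the 6 groups). P-values were Benjamini-Hochberg adjusted over all tested genes, with calls under 0.05. The interaction was tested in a model of site by genotype. SE was derived as the absolute log2 difference over the root of its F statistic. The common biological coefficient of variation was 45.6%. The steps were tested on simulated data. Alternatives also used DESeq2 1.42.0 and limma 3.58.1.

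The members and the 58 gene lists were chosen with earlier results of these data known, and no list was tested as a set. Named genes had symbols and came from a rule. In each direction it took the 15 shared genes with the largest smallest site difference, among those with at least 10 CPM on average in the higher genotype at every site. It took the 10 shared genes with the largest CPM difference without that limit. It also took, in each direction, the 10 most even shared genes with at least a 4-fold difference and 10 CPM in the higher genotype. Among called genes with a reversal at 1 site and a called interaction, it took the 8 in each direction with the smallest interaction p-value. From each list it took up to 4 members by p-value. The text gives a part of these, chosen with values known, and some genes are not reported here. Outside the rule, and named after their values were seen, are C3, CASP14, CDKN2B, CENPF, COL1A2, COL7A1, CXCR2, DST, DUSP4, EGFR, ERBB3, EREG, ERRFI1, FANCD2, FDFT1, FLT1, IL1A, INSIG1, KLK7, LAMA3, LAMB1, LUM, MMP2, MX1, MYH11, NPAS2, NRG1, OAS1, PHLDA1, PLAU, SESN1, TIMP1 and TP63. Counting intervals and the floor of 3 counts cover counting error only.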

Additional observations from a re-analysis of the deposited data

Results flagged for a closer look

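The DIK-WT difference varied over the 3 sites for 2381 of the tested genes (18.5%), by the interaction of site and genotype in edgeR's quasi-likelihood test at an adjusted p under 0.05. Among genes named here, 43 were of this kind, and their interaction adjusted p is given in brackets. The sign was not the same at all sites for TPM3 (7.58e-06), LGALSL (7.58e-06), PFKM (1.98e-05), NDUFS7 (3.20e-05), PHLDA1 (0.000208), INSIG1 (0.000208), MX1 (0.000305), OAS1 (0.000834), PFKL (0.00457), FDFT1 (0.00624) and CTNNB1 (0.0219). Of these, TPM3, PFKM and NDUFS7 were below WT at the nose and the scrotum and had site differences of 1.39, 0.03 and 0.47 at the mouth. PHLDA1 and INSIG1, in contrast, were below WT at the nose, with -0.68 and -1.12, and above it at the scrotum, with 4.26 and 2.26.

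With 1 sign throughout, the difference was smallest at the mouth for TTN (0.000158), ISG15 (0.000739), SDHB (0.00109), KIT (0.0122), ALDOA (0.0166), DUSP4 (0.0215), PYGM (0.0227), CRNN (0.0254), BMP2 (0.0271), ANXA1 (0.0393) and CLDN7 (0.0402). It was smallest at the nose for MMP2 (0.00468), LAMA3 (0.0122), CDKN1A (0.0122), SLC2A1 (0.0159), C3 (0.0164), PTGDS (0.0206), C1S (0.0239), C1QB (0.0253), DCN (0.0259), PITX1 (0.027) and EPHA2 (0.0312). It was smallest at the scrotum for MYH11 (0.000511), WNT10A (0.00305), CASP14 (0.00465), TP63 (0.00736), SFRP2 (0.00858), CXCR2 (0.013), KLK7 (0.0224), PSMB6 (0.025), CENPF (0.0372) and CLDN1 (0.0459). TTN differed by -10.47 at the nose, -4.55 at the mouth and -12.50 at the scrotum. MMP2 differed by -1.63 at the nose, -4.12 at the mouth and -4.24 at the scrotum, and DCN by -3.13 at the nose, -4.69 at the mouth and -5.45 at the scrotum, the smaller of the differences of both stromal genes being at the nose. WNT10A differed by 3.06 at the nose, 4.14 at the mouth and 2.27 at the scrotum, SFRP2 by -2.62 at the nose, -7.34 at the mouth and -2.01 at the scrotum, and SLC2A1 by 2.32 at the nose, 5.46 at the mouth and 5.67 at the scrotum. In the libraries of the scrotum, WT replicate 2 held the high level of squamous genes given above, and its part in the smaller differences there was not tested. Groups of 3 libraries are too small for a search for single outlying samples.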

How the results depend on the processing

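No named gene that was called as reported changed sign under any alternative. For named genes not called as reported, such as MX1, INSIG1 and OAS1, the sign was not compared. Of 5028 recomputed differences of 153 named genes, 4933 kept their side of the threshold, 87 were no longer called and 8 became called. These changes touched 18 genes, namely CASP14, CTNNB1, DST, FDFT1, FLT1, GATA2, INSIG1, KLK7, LGALSL, MX1, NDUFS7, NPAS2, OAS1, PERP, PFKL, PFKM, PHLDA1 and TPM3. Under the median-of-ratios and upper-quartile scaling, library size alone, no filter, a filter of 10 CPM in 3 libraries and DESeq2, 2711 to 3720 genes were higher, 2876 to 5283 lower, 1087 to 1513 higher at every site and 1117 to 1575 lower at every site. Scaling by library size alone moved the median of all tested genes to -0.18, against -0.05 as reported, and the share of calls that were higher to 39.9%, against 47.5%. A total of 2828 of the 2838 shared genes were still called. With limma-voom and quality weights 4448 genes varied over the sites, and at an adjusted p under 0.01 953 did. With at least a 2-fold difference required, 2378 genes were higher. The same sign at every site, with overlap allowed, held for 3443 higher and 3450 lower genes. Without the nose libraries 2096 genes were lower at the remaining sites and 1272 varied over sites, without the mouth libraries 702 varied, and without the scrotum libraries 2354 were higher at the remaining sites and 1563 varied, since fewer sites have to be apart and fewer differences can be compared. Leaving out each library in turn gave 3546 to 4008 higher, 4019 to 4352 lower, 1548 to 2116 higher at every site, 1359 to 1605 lower at every site and 1631 to 2876 varying genes. The highest count of genes higher at every site came without WT scrotum replicate 2, and the highest count of genes lower at every site without WT nose replicate 1. Sparse counts in WT nose replicate 1 limit what can be said of genes under a few CPM there.

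The replicate numbers are not stated to pair samples, and same-numbered DIK and WT libraries of a site did not deviate together (correlations from -0.048 to 0.089 over 9 pairs, the own number best in 2). With these pairs as a replicate block in place of the site, 3490 genes were higher, 3605 lower, 1510 and 1326 so at every site, and 1624 varied over the sites. Of the named genes, CTNNB1, LGALSL and PFKL lost the call under it.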

Other observations

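SAL1 and PTGDS were among the 15 genes with the largest falls at every site and belong to none of the lists. SAL1, a salivary lipocalin, had 0, 0.484 and 13.3 CPM in DIK, against 31.0, 141 and 88163 CPM in WT (-11.48 ± 1.21, adjusted p = 2.92e-07), and all WT nose libraries stood far above the other WT libraries. PTGDS, which makes prostaglandin D2 and carries lipids, had 0, 0.531 and 8.97 CPM in DIK, against 166, 261 and 482 CPM in WT (-7.54 ± 0.88, adjusted p = 1.95e-06). Of 9 tested genes of recombination repair 7 rose, 2 at every site (median 1.70). FANCD2, of the crosslink repair pathway, had 1.87, 3.45 and 5.99 CPM in DIK, against 0.851, 1.4996 and 2.25 CPM in WT (1.28 ± 0.27, adjusted p = 4.47e-04). Its level was low throughout, and DIK exceeded WT at every site.

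Of 13 tested NRF2 response genes 7 rose and 1 was shared, TALDO1, an enzyme of the pentose phosphate pathway, with 169, 229 and 253 CPM in DIK, against 46.8, 65.0 and 136 CPM in WT (1.47 ± 0.23, adjusted p = 2.24e-05). Over all tested genes 28.5% were higher and 11.7% higher at every site, so the shared share of this list was below that over all genes. GPX2, a glutathione peroxidase of epithelium, rose over all sites (4.34 ± 1.02, adjusted p = 0.0016), with overlap at some site. Few mast cell genes could be tested; all 3 fell, among them the stem cell factor receptor KIT (-2.62 ± 0.54, adjusted p = 4.07e-04) and the transcription factor GATA2 (-0.97 ± 0.35, adjusted p = 0.0237). The call of GATA2 was lost without DIK mouth replicate 3, DIK scrotum replicate 1 or DIK scrotum replicate 2 (adjusted p = 0.0570, 0.0539 and 0.0506), and without the mouth (0.276) or the scrotum libraries (0.109). KIT also marks melanocytes. MHC class II genes gave 1 riser among 9 tested, a smaller share than over all tested genes, and their differences varied over the sites in 6.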
